A study of Mus musculus with 12 samples.

Results

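Heme is made from glycine and succinyl-CoA by a chain of enzymes that begins and ends in the mitochondrion, and it is broken down by heme oxygenase. The genes followed here were the delta-aminolevulinate synthases Alas1 and Alas2, the intermediate enzymes Alad, Uros, Urod, Cpox and Ppox, the terminal enzyme ferrochelatase (Fech), and the inducible heme oxygenase Hmox1. They were found by name in the gene tables of the 12 libraries, where they make up 9 of 38127 listed genes. Of these 9, 8 had counts above 0.

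RNA was sequenced from Ter119- CD45- cells of C57BL/6 mouse fetal liver (FL), a fraction from which mature erythroid cells (Ter119+) and most blood cells (CD45+) had been gated out. At embryonic day 14.5 (E14.5) the groups were P2 (CD54- CD31- Kit+ CD24+), CD54+ (CD54+ CD31-, called CD324+ in the study) and CD31+ (CD54+ CD31+), and at E18.5 there was again a CD54+ (CD54+ CD31-) group. Each group had 3 libraries; the study describes its E14.5 material as coming from 3 separate litters, and for the E18.5 libraries the number of litters is not given in the sources used here, so their p-values measure the spread between these samples, which may be technical. No treatment or mutation was involved, all groups share the strain and the Ter119- CD45- gate, and by the labels the CD54+ and CD31+ gates had no term for Kit or CD24. Total counts ran from 40714017 to 64368883 per library.

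Erythroid precursors are the body's heaviest producers of heme, which they need for hemoglobin, and they use Alas2 where other cells use the housekeeping Alas1. Hepatocytes also make much heme, mainly for cytochromes P450, and hold Alas1 in check through heme itself. Hmox1 opens the heme ring and is typical of macrophages and of endothelium that clear heme, where loss of the repressor Bach1 from DNA, or binding of Nrf2 (Nfe2l2), turns it on.

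The cells matched most of their labels. Levels are in CPM, counts scaled to sequencing depth with TMM factors over the 12 libraries. The summed level of 17 erythroid markers was 3769 to 4139 CPM in P2, 927 to 1536 in CD54+ E14.5, 614 to 1073 in CD31+ and 170 to 511 in CD54+ E18.5. Of the 17, 12 were called higher in P2 than in CD54+ E14.5, 1 lower and 4 neither (all genes tested, 33.8% higher and 36.1% lower). The means of Slc4a1 (120.5 against 223.7 CPM), Hbb-bs (41.6 against 81.5), Hbb-bt, Hba-a1 and Hba-a2 were lower in P2 than in CD54+ E14.5. The sum of 12 hepatoblast markers was 78828 to 90847 in CD54+ E14.5 and at most 1072 in every P2 and CD31+ library, and that of 12 endothelial markers was 9633 to 10262 in CD31+ against at most 429 elsewhere. The CD54+ E18.5 libraries went against the label: 8 lung epithelium markers summed to 8274 to 18988 CPM there and to at most 15.6 in all others, and 8 mesenchymal markers to 3905 to 4338 CPM against at most 232.0. Replicate 1 of that group stood apart, with 6269 CPM of hepatoblast markers against 45935 and 59779 in replicates 2 and 3. The E18.5 comparison is therefore given with and without it.

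The 3 promoter windows printed are those, among 10 windows of the members, that held a match to the GATA motif given below. Cpox had the highest level per kilobase of exon among the members in P2, and Alas2 is the erythroid synthase. For Uros the window shown is that of the inner start site, and another start site lies further upstream. The windows run from 250 bases before to 50 after a RefSeq start site (GRCm38.p6), 5′ to 3′ on the gene's strand, and capitals mark matches to the GATA motif (AGATAA or TGATAA, either strand). Of the 9 genes, 7 had a window (Ppox, Alad, Urod, Uros, Alas1, Cpox and Alas2).
Cpox, chr16:58669958-58670257, plus strand: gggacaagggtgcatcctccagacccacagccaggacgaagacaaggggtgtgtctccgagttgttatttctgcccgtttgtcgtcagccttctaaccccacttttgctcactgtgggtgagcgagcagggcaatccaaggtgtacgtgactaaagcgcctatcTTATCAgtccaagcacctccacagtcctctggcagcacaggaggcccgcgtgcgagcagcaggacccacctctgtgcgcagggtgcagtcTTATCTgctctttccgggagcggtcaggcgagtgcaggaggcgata
Alas2, chrX:150547167-150547466, plus strand: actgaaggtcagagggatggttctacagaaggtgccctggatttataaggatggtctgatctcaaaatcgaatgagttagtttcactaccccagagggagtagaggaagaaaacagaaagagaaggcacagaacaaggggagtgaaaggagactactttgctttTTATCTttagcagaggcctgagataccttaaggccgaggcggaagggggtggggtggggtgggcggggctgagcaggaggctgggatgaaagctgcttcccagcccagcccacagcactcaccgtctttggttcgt
Uros, inner start site, chr7:133702451-133702750, minus strand: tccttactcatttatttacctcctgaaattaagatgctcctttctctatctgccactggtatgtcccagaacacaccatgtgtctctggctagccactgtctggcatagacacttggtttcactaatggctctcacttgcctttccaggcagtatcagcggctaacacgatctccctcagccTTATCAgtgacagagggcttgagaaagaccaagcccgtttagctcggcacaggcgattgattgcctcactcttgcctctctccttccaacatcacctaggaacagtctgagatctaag
Cpox held 2 GATA matches, starting 86 bases before and 4 bases after the start site, Alas2 held 1 at 86 bases before, and the inner Uros window held 1 at 68 bases before. No GATA match was found in the windows of Ppox, Alad, Urod, Alas1 or the upstream Uros start. The motif was present in 6115 of 32851 windows of this length (18.6%). The looser CACCC motif (CCNCNCCC, either strand) was in 9 of their 10 windows, against 49.5% of all windows, and the antioxidant motif TGACNNNGC, which was in 12.4% of all windows, was in none of theirs. A match is a description of letters only.

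Alas2, which erythroid cells use for the first step, was listed at 0 counts in all 12 libraries. This 0 was not read as a level. Alas2 (chrX:150547375-150570638, plus strand, GRCm38) lies wholly within the annotated span of Apex2, a DNA repair nuclease gene on the minus strand (chrX:150519519-150589868), and 311 of its 2403 exon bases are also Apex2 exon. Across the tables, 6281 of 6329 genes that lie inside another gene (99.2%) were at 0 in all 12 libraries, against 7718 of 31603 that do not (24.4%). The share was 99.5% for genes inside a host on the same strand, 99.0% where every host was on the opposite strand, and 99.5% where no exon was shared. Abcb10, a mitochondrial heme pathway transporter that also lies within another gene, was at 0 as well. Apex2 itself was at 7.37 to 22.0 CPM over the 12 libraries. The expression of Alas2 was thus not measured here.

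**Figure D1:**
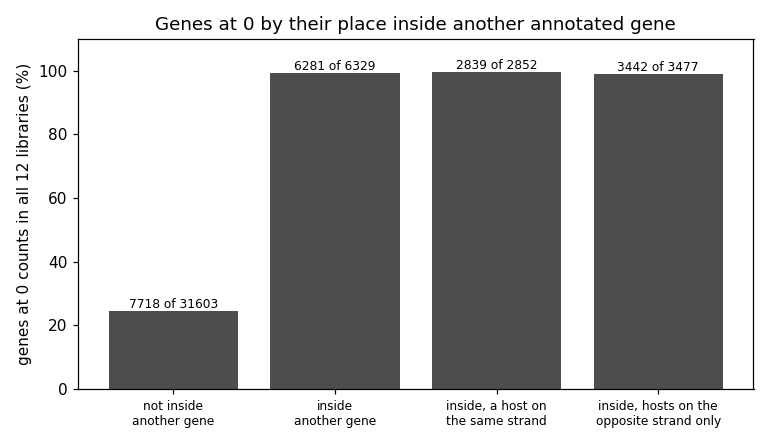
Share of genes at 0 counts in all 12 libraries (vertical axis, percent) by their place in the annotation, with the number at 0 and the number in the class above each bar. Genes not inside another gene were at 0 in 24.4% of cases, and genes inside another gene, of which Alas2 is an example with its host on the opposite strand, in 99.2%.

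The other 8 members showed 3 patterns. Alad, Uros, Urod, Cpox, Ppox and Fech were highest in P2, Alas1 was lowest in P2 and highest in CD54+ E14.5, and Hmox1 was lowest in P2 and highest in CD31+. In P2 against CD54+ at E14.5, 6 of the 8 members were higher and 2 lower, while of 15461 genes tested 33.8% were higher and 36.1% lower. The P2 against CD31+ comparison gave the same 6 higher and 2 lower, beside 34.3% higher and 39.4% lower of all genes tested. The median log2 fold change of the 8 was 1.04 in the first and 1.95 in the second comparison, against -0.01 and -0.13 over all genes tested. A call alone was thus common in these data, and the sizes are given below. In bulk samples, fewer cells of a type and less RNA per cell cannot be told apart.

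**Figure D2:**
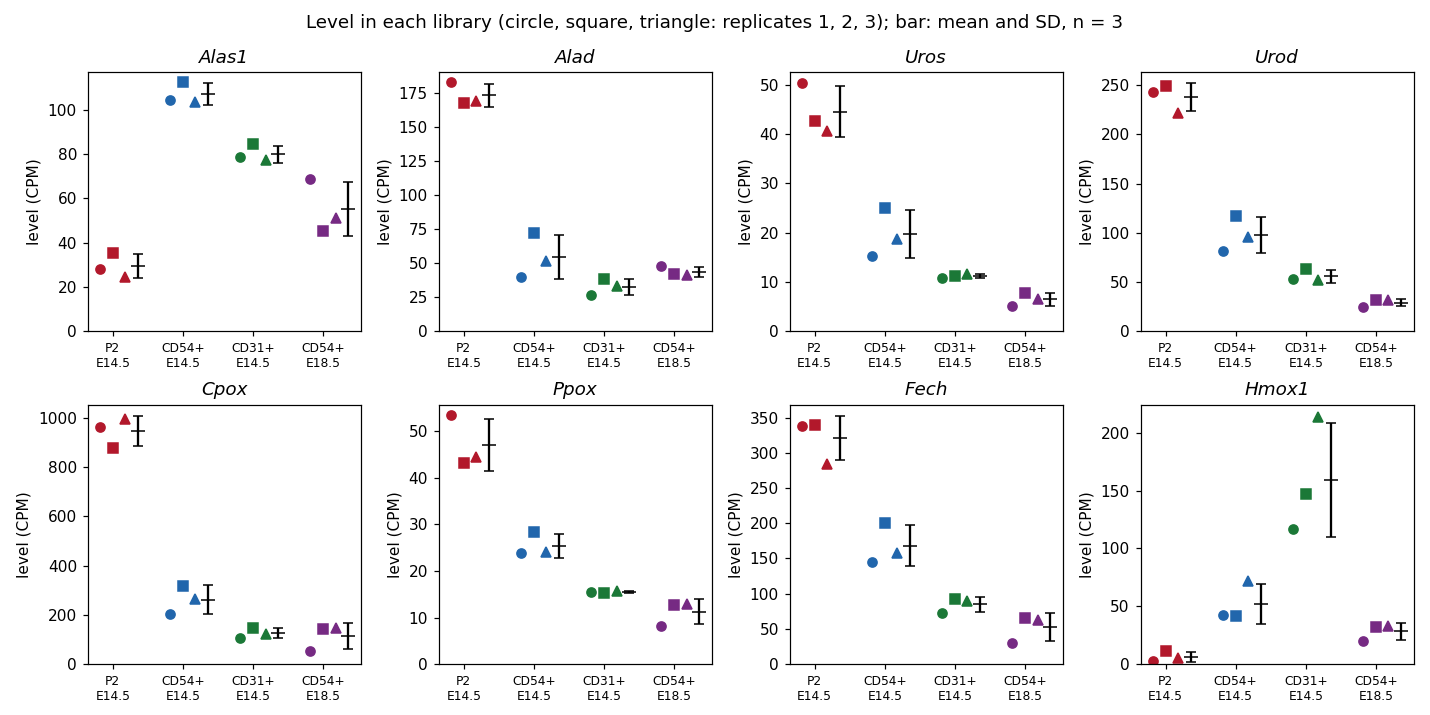
Level (CPM, vertical axes from 0) of the 8 members with counts in each of the 12 libraries by group; the black bar is the mean and SD of 3 libraries. Every P2 library lay above every other library for Alad, Uros, Urod, Cpox, Ppox and Fech and below every other library for Alas1 and Hmox1. The share of all genes that set P2 apart in this way was not counted, so this separation is not read as particular to the members. Alas2, at 0, is not drawn.

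Alas1 (chr9:106233455-106248654, minus strand) makes delta-aminolevulinate, the committed step outside the erythroid lineage. It was at 28.2, 35.5 and 24.6 CPM in P2, 104.5, 112.6 and 103.4 in CD54+ E14.5, 78.4, 84.3 and 77.1 in CD31+, and 68.9, 45.4 and 51.1 in CD54+ E18.5. On the TMM scale no 2 groups overlapped. The CD31+ to CD54+ E18.5 difference lost its call with the authors' library factors (adjusted p = 0.343). Alas1 was 3.68-fold lower in P2 than in CD54+ (log2 fold change -1.88, SE 0.13, adjusted p = 3.83e-07) and 2.74-fold lower than in CD31+ (-1.45, SE 0.13, adjusted p = 2.42e-06). It was 1.34-fold lower in CD31+ than in CD54+ (-0.43, SE 0.12, adjusted p = 0.0114), a call that was lost with the authors' library factors (adjusted p = 0.0658).

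Alad (chr4:62509169-62519918, minus strand) joins 2 molecules of delta-aminolevulinate into porphobilinogen. Its level was 183.1, 168.0 and 169.6 CPM in P2, 40.0, 72.3 and 51.7 in CD54+ E14.5, 26.6, 38.5 and 33.3 in CD31+ and 48.2, 41.8 and 41.6 in CD54+ E18.5. P2 stood clear of the rest, whereas the CD54+ E18.5 values fell within the range of CD54+ E14.5. The difference was 3.14-fold against CD54+ (log2 1.65, SE 0.20, adjusted p = 2.97e-05) and 5.25-fold against CD31+ (log2 2.39, SE 0.20, adjusted p = 2.15e-06).

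Uros (chr7:133686243-133710072, minus strand) forms uroporphyrinogen III, and Urod (chr4:116989965-116994413, minus strand) decarboxylates the ring. Uros was at 50.4, 42.7 and 40.7 CPM in P2, 15.4, 25.0 and 18.8 in CD54+ E14.5, 10.7, 11.3 and 11.5 in CD31+ and 5.14, 7.83 and 6.48 in CD54+ E18.5. Urod was at 242.9, 248.7 and 221.9 CPM in P2, 81.0, 117.3 and 96.1 in CD54+ E14.5, 52.9, 63.4 and 51.6 in CD31+ and 24.6, 31.5 and 31.5 in CD54+ E18.5. For both genes the 4 groups did not overlap. Uros was 2.24-fold (log2 1.16, SE 0.16, adjusted p = 8.54e-05) and Urod 2.39-fold (log2 1.26, SE 0.14, adjusted p = 1.23e-05) higher in P2 than in CD54+. Against CD31+ the log2 differences were 1.98 (SE 0.16) for Uros and 2.08 (SE 0.14) for Urod.

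Cpox (chr16:58670292-58717636, plus strand), the mitochondrial coproporphyrinogen oxidase, had the widest P2 to CD54+ and P2 to CD31+ differences of the 6 enzymes. Its level was 962.3, 878.6 and 996.7 CPM in P2, 201.4, 317.7 and 265.3 in CD54+ E14.5, 104.8, 146.0 and 122.8 in CD31+ and 51.2, 141.4 and 144.9 in CD54+ E18.5. P2 exceeded all other libraries, and CD31+ and CD54+ E18.5 overlapped. Cpox was 3.57-fold higher in P2 than in CD54+ (log2 1.84, SE 0.17, adjusted p = 3.69e-06) and 7.54-fold higher than in CD31+ (log2 2.91, SE 0.18, adjusted p = 2.24e-07). Its window is the one printed above with 2 GATA matches.

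Ppox (chr1:171275990-171281186, minus strand), which oxidises protoporphyrinogen, had the smallest P2 to CD54+ and P2 to CD31+ differences of the 6. It was at 53.5, 43.2 and 44.4 CPM in P2, 23.9, 28.3 and 24.0 in CD54+ E14.5, 15.5, 15.3 and 15.7 in CD31+ and 8.10, 12.6 and 12.96 in CD54+ E18.5. On the TMM scale the groups did not overlap. The CD31+ to CD54+ E18.5 difference of Ppox lost its call with the authors' factors (adjusted p = 0.398). The excess in P2 was 1.83-fold against CD54+ (log2 0.87, SE 0.11, adjusted p = 3.9e-05) and 3.01-fold against CD31+ (log2 1.59, SE 0.11, adjusted p = 5.27e-07). Ppox shares 17.5% of its span with B4galt3, the largest share among the members with counts.

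Fech (chr18:64452914-64490251, minus strand) inserts iron into protoporphyrin IX. Its level was 338.8, 339.6 and 284.5 CPM in P2, 144.6, 200.7 and 158.3 in CD54+ E14.5, 72.4, 92.6 and 89.2 in CD31+ and 29.9, 64.9 and 63.2 in CD54+ E18.5. On the TMM scale these groups too did not overlap. The CD31+ to CD54+ E18.5 difference of Fech lost its call with the authors' factors (adjusted p = 0.173). Fech was 1.89-fold higher in P2 than in CD54+ (log2 0.92, SE 0.14, adjusted p = 0.000185) and 3.76-fold higher than in CD31+ (log2 1.91, SE 0.15, adjusted p = 9.5e-07).

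Levels of single genes were compared with each other only per length. The sums of enzymes and of markers, and their ratio, are not scaled by length. In P2, Cpox alone had a mean of 945.8 CPM, beside 1721 to 1831 CPM for the sum of the 6 enzymes. Per kilobase of exon the mean in P2 was 142.0 CPM for Cpox, 92.8 for Alad, 91.8 for Urod, 23.2 for Fech, 12.5 for Uros, 10.4 for Ppox and 4.76 for Alas1. Per kilobase of the gene span that no other gene shares, Urod (53.5 CPM) came before Cpox (20.1) and Alad (16.1), so the order of the enzymes depends on the length used.

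Hmox1 (chr8:75093621-75100589, plus strand) ran the other way. It was at 2.37, 11.1 and 5.62 CPM in P2, 42.6, 41.6 and 71.7 in CD54+ E14.5, 116.9, 147.4 and 213.8 in CD31+ and 19.8, 32.1 and 33.1 in CD54+ E18.5. On the TMM scale the 4 groups did not overlap, although the values within P2, CD54+ E14.5 and CD31+ were widely spread. Hmox1 was 25.1-fold lower in P2 than in CD31+ (log2 fold change -4.65, SE 0.51, adjusted p = 1.33e-05) and 8.23-fold lower than in CD54+ (-3.04, SE 0.48, adjusted p = 0.000211). Without P2 replicate 2, which had the most Hmox1 of its group, Hmox1 in P2 was 39.6-fold lower than in CD31+ (log2 -5.31, adjusted p = 6.04e-07) and 12.97-fold lower than in CD54+ (log2 -3.70, adjusted p = 7.52e-06), and its log2 difference from CD54+ E18.5 went from -2.15 to -2.82. It was 3.05-fold higher in CD31+ than in CD54+ (log2 1.61, SE 0.44, adjusted p = 0.00865).

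Within P2, within CD54+ E14.5 and within CD31+, macrophage markers were in the same order as Hmox1 among the libraries. The sum of 12 macrophage markers, leaving out Mrc1, which is also an endothelial gene, was 6.59, 12.2 and 9.86 CPM in P2 replicates 1, 2 and 3. In CD31+ the sum was 62.6, 82.6 and 120.3 CPM, and granulocyte markers summed to 143.9, 294.0 and 627.3. In CD54+ E14.5 it was 175.2, 165.7 and 285.0, and replicate 3 was also the one with 71.7 CPM of Hmox1. In CD54+ E18.5 it was 62.8, 211.0 and 202.6, lowest in replicate 1 as Hmox1 was, but highest in replicate 2, where Hmox1 was not. Between groups the order differed: CD31+ had more Hmox1 than CD54+ E14.5 with a lower macrophage sum in every library. P2 replicate 2, with the most Hmox1 of its group, also had 429 CPM of endothelial markers against 80.6 and 126.8. The part of these cells in the Hmox1 values was not tested.

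**Figure D3:**
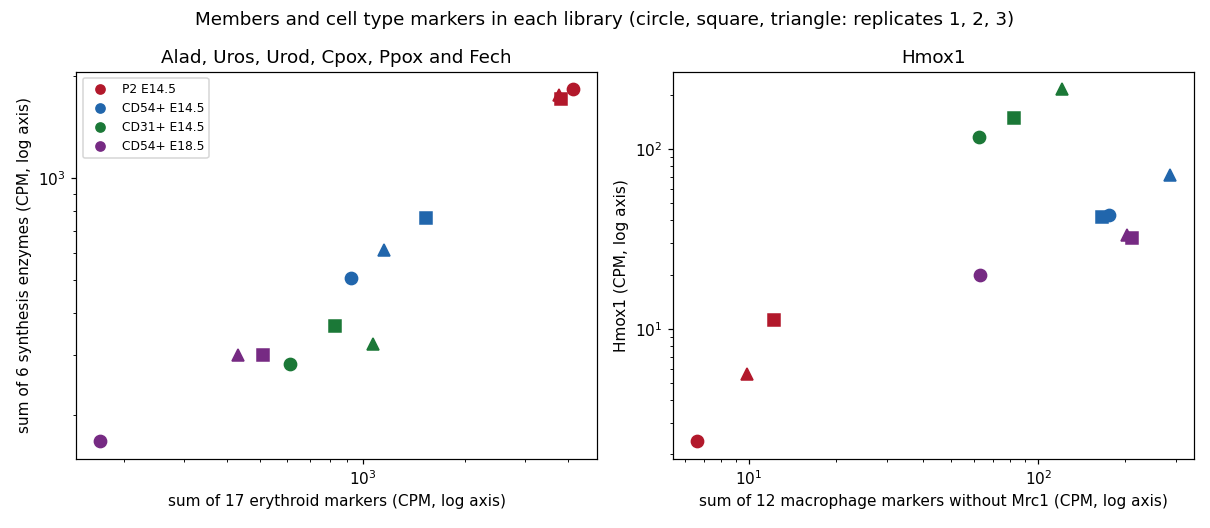
Left, the summed level of Alad, Uros, Urod, Cpox, Ppox and Fech against the sum of 17 erythroid markers; right, Hmox1 against the sum of 12 macrophage markers without Mrc1, each point a library, all axes logarithmic in CPM. P2 sits at the upper right on the left panel, with 1721 to 1831 CPM of the enzymes, and the CD31+ libraries sit highest on the right panel at 62.6 to 120.3 CPM of macrophage markers.

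In CD31+ against CD54+ at E14.5, all 7 tested synthesis enzymes were lower and Hmox1 was higher, beside 31.7% of genes higher and 34.0% lower; the median log2 fold change of the 8 members was -0.78, that of all genes -0.03. The differences were 1.34-fold for Alas1, 1.67-fold for Alad (log2 -0.74, SE 0.20, adjusted p = 0.00700), 1.77-fold for Uros (-0.82, SE 0.16), 1.76-fold for Urod (-0.82, SE 0.13), 2.11-fold for Cpox (-1.08, SE 0.17, adjusted p = 0.000219), 1.65-fold for Ppox (-0.72, SE 0.11) and 1.99-fold for Fech (-0.99, SE 0.14, adjusted p = 0.000128). Erythroid markers were lower as well, with 10 of 17 called lower and none higher. The ratio of the 6 enzymes to the erythroid marker sum was 0.302 to 0.461 in CD31+, 0.496 to 0.546 in CD54+ E14.5, 0.442 to 0.466 in P2 and 0.587 to 0.983 in CD54+ E18.5. Within CD54+ E14.5, replicate 2 had the highest enzyme sum (761.3 CPM, against 506.4 and 614.2) and the highest erythroid sum (1536 CPM, against 927.3 and 1153). The part of erythroid cells in the CD54+ and CD31+ levels was not tested.

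**Figure D4:**
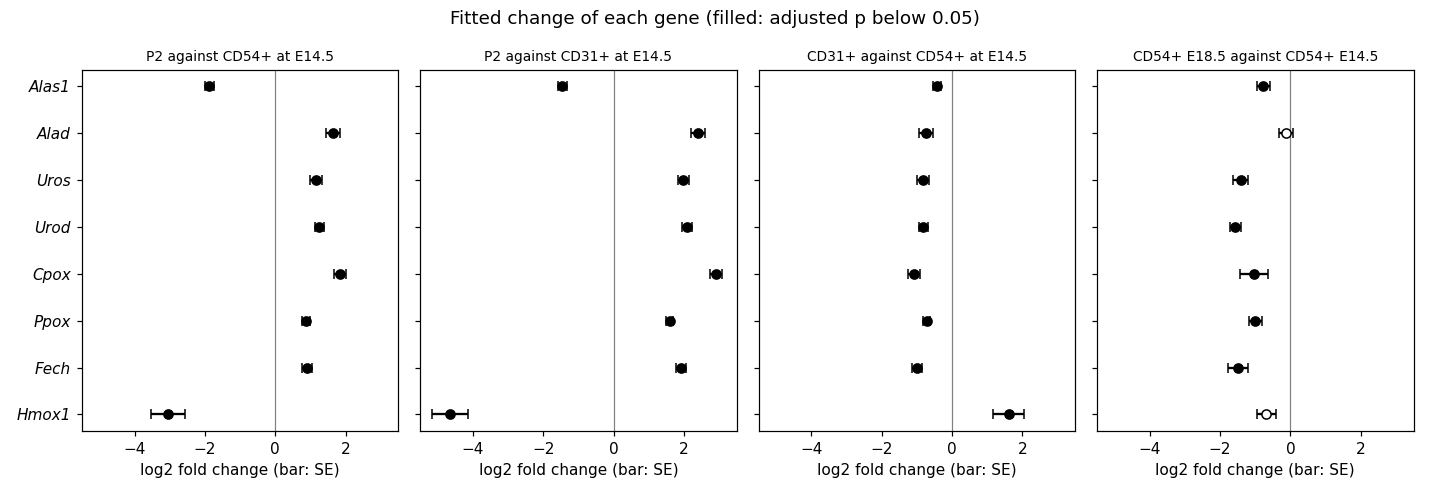
Fitted log2 fold change (horizontal axes) with its SE for the 8 members with counts in 4 comparisons; filled points passed an adjusted p of 0.05. In P2 the enzymes from Alad to Fech lie to the right of 0 and Alas1 and Hmox1 to the left; at E18.5 Alad and Hmox1 are the open points.

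Between E18.5 and E14.5 in the CD54+ gate, 6 of 8 members were lower and none higher, beside 33.5% of 15863 genes lower and 35.9% higher; the median was -1.02 for the members and 0.03 for all genes. Urod fell by 1.56 on the log2 scale (SE 0.16, adjusted p = 0.000175), Fech by 1.49 (SE 0.30, adjusted p = 0.00378), Uros by 1.42 (SE 0.22, adjusted p = 0.00125), Ppox by 1.00 (SE 0.19, adjusted p = 0.00305) and Alas1 by 0.77 (SE 0.17, adjusted p = 0.00660). Cpox stood at the threshold (-1.04, SE 0.39, adjusted p = 0.0484). Alad (-0.13, SE 0.21, adjusted p = 0.608) and Hmox1 (-0.69, SE 0.27, adjusted p = 0.0562) did not pass. Replicate 1 had the lowest Uros, Urod, Cpox, Ppox, Fech and Hmox1 of the E18.5 group and the highest Alas1 and Alad, along with the lowest erythroid sum (170.1 CPM, against 511.1 and 431.5). Without it the same 6 members were lower, Urod by 1.47, Uros by 1.29, Fech by 1.22, Alas1 by 0.98, Ppox by 0.82 and Cpox by 0.70 (adjusted p = 0.00372) on the log2 scale, and Alad (adjusted p = 0.345) and Hmox1 (adjusted p = 0.0596) again did not pass. Markers of other cells moved with these values: 11 of 17 erythroid markers were lower at E18.5 (16 without replicate 1) and none higher, while all 7 tested mesenchymal (median log2 3.88), all 12 endothelial (2.15) and 7 of 8 lung markers were higher, with and without replicate 1. Their part in the E18.5 differences was not tested.

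The order of the group levels was P2, CD54+ E14.5, CD31+, CD54+ E18.5 for Uros, Urod, Cpox, Ppox and Fech. The neighbours Cpox in CD31+ and in CD54+ E18.5 overlapped and did not pass the test (adjusted p = 0.701), and for Alad neither CD54+ E14.5 and CD54+ E18.5 nor CD54+ E18.5 and CD31+ (adjusted p = 0.0722) did. P2 differed from CD54+ E18.5 in all 8 members, 6 higher and 2 lower, in a fit where 36.6% of 16643 genes were higher and 44.0% lower, and the counts were the same without E18.5 replicate 1. For CD31+ against CD54+ E18.5, where 38.8% of genes were higher and 29.7% lower, with a median of 0.18 over all genes, 6 members were higher and none lower (Hmox1 log2 2.49, SE 0.47, adjusted p = 0.000567), but 3 were higher (Uros, Urod and Hmox1) and 1 lower (Alad) under 6 of the alternative settings. Without E18.5 replicate 1, 5 were higher and none lower.

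Heme and its precursors cross membranes on their way through the pathway. Of 15 transport genes listed, 12 were tested (Abcb10 was at 0, and Flvcr1 and Flvcr2 were not used here), and against CD54+ 5 were higher in P2 and 5 lower. Of all genes tested, 33.8% were higher and 36.1% lower in that comparison. Slc25a38, the mitochondrial glycine carrier that feeds the first step, was 2.45-fold higher (log2 1.29, SE 0.11, adjusted p = 1.84e-06), at 92.4, 82.3 and 76.2 CPM in P2 against 30.7, 37.9 and 32.6. Tmem14c, which moves protoporphyrinogen into the mitochondrial matrix, was 1.98-fold higher (log2 0.99, SE 0.22, adjusted p = 0.00256), and Slc48a1, which exports heme from lysosomes, 2.94-fold higher (log2 1.55, SE 0.12, adjusted p = 8.45e-07). The iron importer Slc25a37 (0.17, SE 0.25, adjusted p = 0.570) and the porphyrin transporter Abcb6 (0.13, SE 0.12, adjusted p = 0.368) did not pass. The lowest of the list in P2 was Slc46a1, a folate carrier also described as a heme carrier (log2 -5.15, SE 0.19, adjusted p = 4.81e-09). Against CD31+, 6 were higher in P2 and 2 lower, with Slc25a38 (log2 2.22, SE 0.11) highest and Slc46a1 (-2.63, SE 0.19) lowest, and Abcb6 among the higher ones (2.05, SE 0.13). In CD31+ against CD54+, 9 were lower and 2 higher: Pgrmc1, a heme-binding membrane protein, fell most (-2.54, SE 0.13) and Slc25a28, an iron importer, rose most (0.98, SE 0.12). At E18.5, 9 were lower and 1, Slc48a1, higher (log2 0.74, SE 0.17, adjusted p = 0.00776). Without replicate 1, 9 were lower and 2 higher, Slc48a1 (0.55, SE 0.12) and Fam210b, a mitochondrial membrane protein (0.32, SE 0.12). Among all genes tested, 34.3% were higher and 39.4% lower in P2 than in CD31+. The higher and lower shares were 31.7% and 34.0% in CD31+ against CD54+, and 35.9% and 33.5% at E18.5.

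After heme oxygenase, biliverdin reductases turn biliverdin into bilirubin. Of Hmox2, Blvra and Blvrb, 2 were higher in P2 than in CD54+, beside 33.8% of all genes tested. Blvrb was at 271.1, 244.9 and 247.2 CPM in P2 and 56.4, 101.5 and 75.6 in CD54+ E14.5 (log2 1.69, SE 0.21, adjusted p = 3.2e-05), and Blvra differed by 0.59 on the log2 scale (SE 0.15, adjusted p = 0.00435). The constitutive oxygenase Hmox2 was at means of 8.36 ± 0.34 (SD, n = 3) CPM in P2 and 9.69 ± 0.61 in CD54+. Between these it did not pass (log2 -0.23, SE 0.12, adjusted p = 0.107). It was lower in P2 than in CD31+ (-0.46, SE 0.12, adjusted p = 0.00512). Hmox2 shares 42.9% of its span and 87.8% of its exon bases with the spans of other genes. How much of the RNA of Hmox2 was counted was not tested. Its CD31+ to CD54+ difference was 0.23 (SE 0.12, adjusted p = 0.117), beside 1.61 for Hmox1, and Blvrb was the single call of the list there (-0.75, SE 0.20, adjusted p = 0.00794).

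Of 15 regulators of heme synthesis and Hmox1, 8 were higher and 3 lower in P2 than in CD54+ (all genes, 33.8% and 36.1%), with a median log2 fold change of 0.52 against -0.01 over all genes. Gata1, the erythroid GATA factor, was at 173.4, 184.2 and 170.1 CPM in P2, 17.3, 34.6 and 24.6 in CD54+ E14.5, 24.3, 30.2 and 25.4 in CD31+ and 1.59, 5.88 and 5.69 in CD54+ E18.5. Klf1, which binds CACCC sites, was at 414.5, 429.0 and 347.3 CPM in P2 and 41.8, 77.4 and 49.5 in CD54+ E14.5, the greatest rise of the list (log2 2.80, SE 0.24, adjusted p = 2.49e-06). Eif2ak1, the kinase that slows translation when heme is short, was 2.07-fold higher (log2 1.05, SE 0.11, adjusted p = 1.25e-05). The greatest fall was that of Ppargc1a, a coactivator that induces Alas1 in liver (-6.34, SE 0.16, adjusted p = 3.25e-10). Against CD31+, 11 were higher and 3 lower in P2, from Klf1 (log2 3.57, SE 0.25) to Ppargc1a (-1.48, SE 0.16). Between CD31+ and CD54+, 5 regulators were higher and 5 lower, with Gata1 among those that did not pass (0.06, SE 0.20, adjusted p = 0.815) and Ppargc1a again lowest (-4.86, SE 0.14). At E18.5 Gata1 fell by 2.35 (SE 0.50) and Klf1 by 2.52 (SE 0.54), among 8 lower and 5 higher. Without replicate 1 they fell by 1.97 (SE 0.26) and 2.11 (SE 0.24), among 8 lower and 7 higher. Of all genes tested, the higher and lower shares were 34.3% and 39.4% in P2 against CD31+. They were 31.7% and 34.0% in CD31+ against CD54+, and 35.9% and 33.5% at E18.5.

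**Figure D5:**
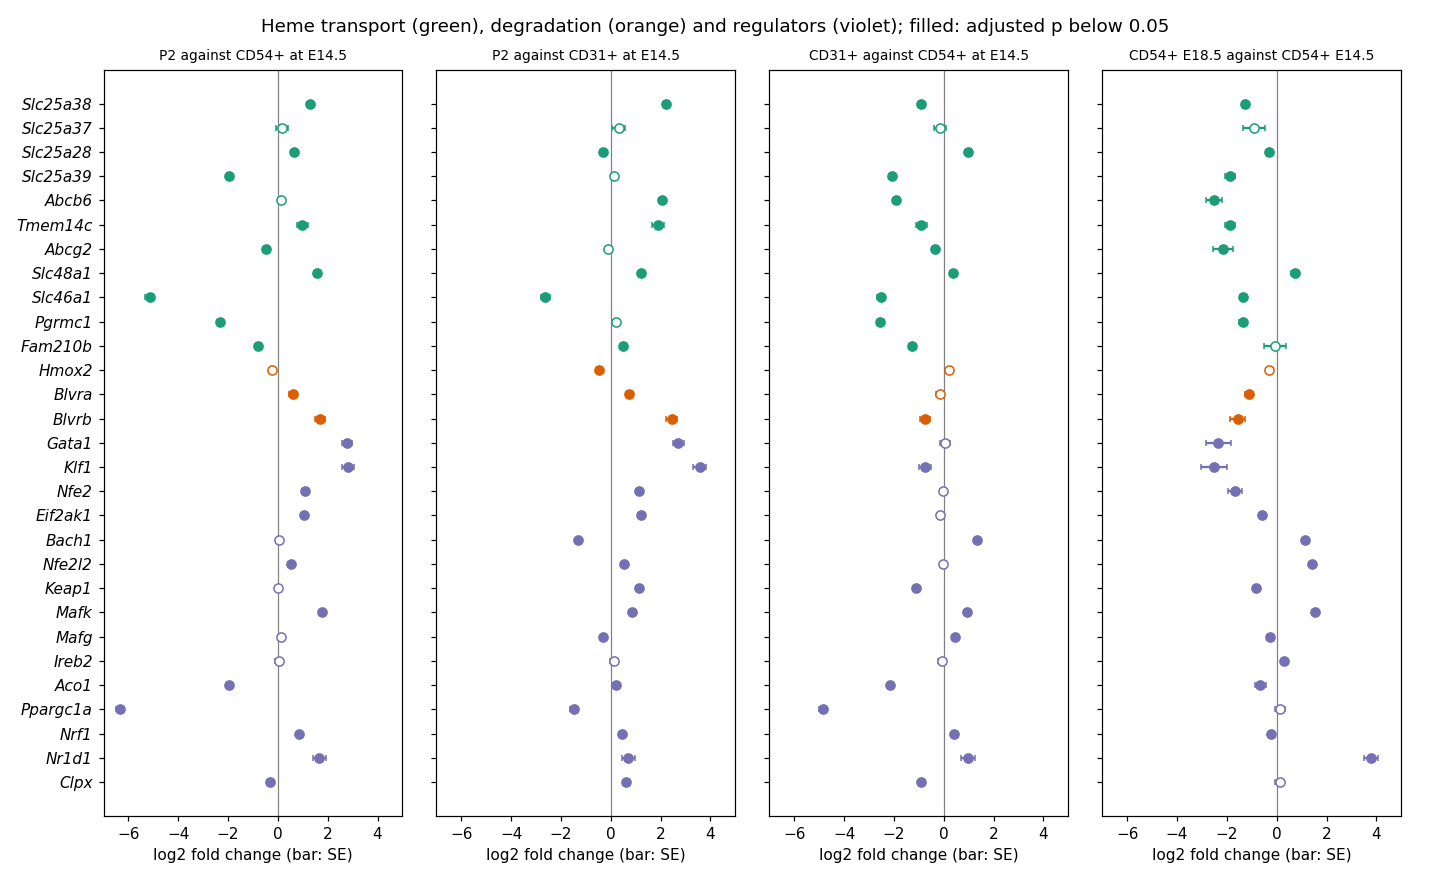
Fitted log2 fold change with SE of tested transport genes (green), 3 degradation genes (orange) and 15 regulators (violet) in 4 comparisons; filled points passed an adjusted p of 0.05. Gata1 and Klf1 lie near 3 in P2 against CD54+ while Ppargc1a lies at -6.34, and Bach1 is open in that comparison and at 1.34 in CD31+ against CD54+.

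Bach1 encodes the repressor of Hmox1. It was at 38.4, 38.3 and 38.7 CPM in P2, 32.5, 39.0 and 39.1 in CD54+ E14.5, 90.4, 87.2 and 103.9 in CD31+ and 75.5, 69.1 and 67.2 in CD54+ E18.5. It was higher in CD31+ than in CD54+ (log2 1.34, SE 0.10, adjusted p = 1.01e-06) and showed no call between P2 and CD54+ (0.04, SE 0.10, adjusted p = 0.728). Its mean level thus had its maximum, like that of Hmox1, in CD31+. Nfe2l2, which encodes the activator Nrf2, was at 139.0, 127.3 and 141.1 CPM in P2, 88.3, 97.3 and 94.4 in CD54+ E14.5, 78.4, 96.3 and 103.5 in CD31+ and 231.0, 215.0 and 201.8 in CD54+ E18.5. It did not pass between CD31+ and CD54+ (-0.02, SE 0.11, adjusted p = 0.901). These are RNA levels, and the binding of Bach1 or Nrf2 to DNA was not tested.

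Of 10 other target genes of Nrf2 and Bach1, 3 were higher and 4 lower in P2 than in CD54+, shares near those of all genes (33.8% and 36.1%), with the quinone reductase Nqo1 (log2 2.08, SE 0.25, adjusted p = 2.44e-05) and malic enzyme Me1 (-3.98, SE 0.32, adjusted p = 1.31e-06) at the ends. None was higher in CD31+ than in CD54+, and 6 were lower, among them Me1 (-1.99, SE 0.28), the ferritin heavy chain Fth1 (-1.33, SE 0.19) and the iron exporter Slc40a1 (-1.02, SE 0.26). Against CD31+, 5 were higher and 1 lower in P2, led by Gclm, a glutathione synthesis subunit (log2 1.82, SE 0.17), with Me1 lowest (-1.99, SE 0.31). Of all genes tested, 34.3% were higher and 39.4% lower there, and 31.7% and 34.0% in CD31+ against CD54+.

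Genes that capture free heme or hemoglobin were low in P2. All 5 of the list were lower in P2 than in CD54+, among them hemopexin (Hpx, log2 -6.81, SE 0.12, adjusted p = 8.97e-11) and Ambp (-6.87, SE 0.15), both secreted by hepatocytes. The hemoglobin receptor Cd163 had 0, 0 and 5 counts in P2 and 10, 17 and 29 in CD54+, so that no fold is given. All 5 were also lower in CD31+ than in CD54+, Hpx by 6.57 (SE 0.11) on the log2 scale. Against CD31+, 4 were lower in P2, with haptoglobin (Hp) lowest (-5.15, SE 0.52, adjusted p = 7.11e-06). At E18.5, Hp (2.66, SE 0.26) and Cd163 (2.51, SE 0.59) were higher and the other 3 lower, as they were without replicate 1 (Hp 2.87, SE 0.14, and Cd163 2.89, SE 0.35), in libraries that differ in hepatoblast and lung markers as given above. Of all genes tested, 36.1% were lower in P2 than in CD54+ and 39.4% lower than in CD31+. In CD31+ against CD54+ 34.0% were lower, and at E18.5 35.9% were higher and 33.5% lower.

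Over the 12 libraries, the log2 levels of the 6 enzymes from Alad to Fech had pairwise Pearson correlations of 0.80 to 0.99 (15 pairs), a description over libraries that share 4 groups. Among 15904 other genes, those most like Uros were Urod (r = 0.99), Ifrd2 and Ftsj1, and those most like Fech were Tspan33 (r = 0.996) and Acp1. Urod was most like Glrx5 and Ifrd2, Cpox most like Ankrd27, Steap3 and Cisd1, Ppox most like Ifrd2, Tspan33 and Rnf123, and Alad most like Diablo, Creg1 and Pdha1. Alas1 was most like Tcf7 (r = 0.98), Calu and Mfge8 (both 0.97). Hmox1 was most like Sirpa (r = 0.99), Hs1bp3 (0.99) and Msr1 (0.98), of which Sirpa and Msr1 are known as myeloid receptors. Alas1 had correlations of -0.39 to -0.73 with the 6 enzymes and 0.79 with Hmox1.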

How the data were processed

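Mouse FL cells were sorted and RNA was sequenced with a stranded total RNA kit that depletes ribosomal RNA. Per the submitters' processing notes, cutadapt 1.11, STAR 2.5.0a, featureCounts 1.4.6-p3, R 3.5.1 and DESeq2 were used on GRCm38; the annotation release and the strand setting are not given in the sources used here. The files deposited by the authors give a raw read count per gene, and beside it a normalized score made by the authors, the count divided by a factor for each library. The tests used the counts, and the score served only to read those factors. Libraries of a group all differed by more than counting error (chi-square over its degrees of freedom, 42.0 to 572.3).

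Genes were compared with edgeR 4.0.16 (quasi-likelihood test, TMM, filterByExpr; R 4.3.3) and Benjamini-Hochberg adjustment over all genes tested, with calls at an adjusted p below 0.05. The 9 E14.5 libraries were fitted together, the 6 CD54+ libraries together, and all 12 for P2 or CD31+ against CD54+ E18.5. In simulated counts for P2 against CD54+, 97 of 100 genes changed 4-fold and 37 of 100 changed 2-fold were called, with 4 unchanged genes. The simulation changed 200 of 15461 genes and gave every gene the same dispersion. In the data 10815 were called, so these rates do not carry over to the tests shown. Gene positions came from GENCODE vM21, in which 37932 genes were found by their identifiers, and promoter windows from RefSeq. Genes were named by rule: all members and set pathway genes, in each list the largest call in each direction at E14.5, and the 3 genes most correlated with each member over log2(CPM + 1), among genes with a mean of at least 10 counts. Flvcr1 and Flvcr2 were not used here, and some items the rule names are not reported here. Members and lists were chosen with earlier results of these data known. Same-numbered CD54+ E14.5 and CD31+ libraries deviated together in all 3 pairs (r 0.122 to 0.334), which met the rule for paired numbers; other groups did not. The tests shown have no block, and the block is an alternative. Pandas 2.3.3, matplotlib 3.10.9 and DESeq2 1.42.0 (as an alternative) were also used. Intervals and floors would cover counting error only; the count floor of 3 was 0.0388 to 0.0944 CPM.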

Additional observations from a re-analysis of the deposited data

How the results depend on the processing

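Between E14.5 groups, and for P2 against CD54+ E18.5, the numbers of members called higher and lower stayed at 6 and 2 (1 and 7 for CD31+ against CD54+) when a replicate was left out, and no fold change of a member turned in sign past a call. For CD31+ against CD54+ E18.5, 3 members were called higher and 1 lower with DESeq2 size factors, with the authors' factors, with DESeq2, with no low count filter, with at least 10 counts in every library and with only the 6 libraries compared; leaving out a replicate gave 4 to 6 higher and 0 to 1 lower. The lower call there, without CD31+ replicate 2, was Alad (adjusted p = 0.0443). The median log2 fold change over all genes there was 0.18 in the fit shown and -0.14 to 0.03 under the settings named. It was 0.15 to 0.20 when a replicate was left out. The cause was not tested.

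Cpox at E18.5 lost its call with DESeq2 size factors (adjusted p = 0.0519), the authors' factors (0.0913), at least 10 counts (0.0738) and without genes above 1% of a library (0.0646), and in 4 fits that left out a replicate (0.0589 to 0.134). Fits with the replicate number as a block called 10326 genes for CD31+ against CD54+, against 10150 without it. With the replicate block, Hmox1 at E18.5 gained a call (log2 fold change -0.68, adjusted p = 0.0302) among libraries whose numbers do not pair; it changed no other call of a member. The authors' factors moved the median log2 fold change of all genes from -0.01 to -0.27 in P2 against CD54+, from -0.13 to -0.50 in P2 against CD31+, from 0.03 to 0.27 between E18.5 and E14.5, from -0.26 to -0.96 in P2 against CD54+ E18.5 and from 0.18 to -0.14 in CD31+ against CD54+ E18.5, and the share of calls that were higher, in the same order, from 48.4% to 38.2%, 46.6% to 33.9%, 51.7% to 60.9%, 45.4% to 30.0% and 56.7% to 43.2%. Group means of members were also taken with DESeq2 size factors, with the authors' factors and without genes above 1% of a library. Of these, 45 moved by at least the SD of the level shown and 51 did not. The counts of listed genes without E18.5 replicate 1 were added after seeing the data. Each group had 3 libraries, and Alas2 had no usable counts.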
